A study of Mus musculus with 9 samples.

Results

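RNA-seq counts are described here for 10 genes that mark fibroblasts and preadipocyte progenitors in fat: Pi16, Pdpn, Dpp4, Cd55, Ly6a, Pdgfra, Pdgfrb, Dcn, Lum and Gdf10. They were taken by gene name from all deposited tables and are 10 of 29386 genes. The study measured poly(A)-selected RNA after loss of Setdb1, a histone H3 lysine 9 methyltransferase that silences repeats and genes, in 3 separate experiments on mouse brown fat. In brown adipose tissue (BAT), 2 control libraries (Setdb1 fl/fl; Adipoq-Cre-) were compared with 2 Setdb1 AKO libraries (Setdb1 fl/fl; Adipoq-Cre+). Both groups carried the floxed alleles, and no group with Cre alone was among the samples. In primary brown adipocytes of genotype Setdb1 flox/flox; Rosa26Cre-ERT2, 1 library after 4-OHT (1 μM 4-hydroxytamoxifen, which activates the Cre) was compared with 1 library after ETOH, the ethanol vehicle. In primary brown adipocytes given siRNA, 2 siSetdb1 libraries were compared with 1 siNC library, the non-targeting control. Whether 1 siRNA sequence or different ones went into the siSetdb1 libraries is not given in the labels. They were treated as replicates, so siRNA errors and p-values may include a difference between siRNAs. The age, sex and housing of the mice, the TN_CE prefix of the BAT titles and the number of animals behind each culture were not given in the sources used here.

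The stroma of fat holds fibroblast-like cells that can become adipocytes. In many mouse depots, PI16-positive and DPP4-positive cells of the connective tissue between lobules stand early in this hierarchy, and cells closer to adipocytes express committed preadipocyte genes. PDGF receptors and the surface antigen SCA-1, the product of Ly6a, are used to sort both kinds, and decorin and lumican are proteoglycans that fibroblasts lay down on collagen fibrils. The Adipoq promoter, which drives Cre in the AKO mice, is active in mature adipocytes, whereas the 10 genes are known chiefly from stromal cells. In bulk tissue, more cells of a type and more RNA per cell cannot be told apart.

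The sequences before the start sites are shown for Pi16, Pdpn and Dpp4, because these 3 genes had the highest fitted fold changes of the 10 in BAT. Each is the 250 bases upstream of the RefSeq start on GRCm38.p6, read 5′ to 3′ on the gene's strand, with CG dinucleotides, the sites of DNA methylation, in capitals.
Pi16, chr17:29318632-29318881, plus strand: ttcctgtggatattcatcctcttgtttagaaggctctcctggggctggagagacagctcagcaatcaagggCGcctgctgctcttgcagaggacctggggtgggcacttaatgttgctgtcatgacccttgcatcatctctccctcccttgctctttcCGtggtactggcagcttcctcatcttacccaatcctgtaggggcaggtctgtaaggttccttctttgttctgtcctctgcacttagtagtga
Pdpn, chr4:143299565-143299814, minus strand: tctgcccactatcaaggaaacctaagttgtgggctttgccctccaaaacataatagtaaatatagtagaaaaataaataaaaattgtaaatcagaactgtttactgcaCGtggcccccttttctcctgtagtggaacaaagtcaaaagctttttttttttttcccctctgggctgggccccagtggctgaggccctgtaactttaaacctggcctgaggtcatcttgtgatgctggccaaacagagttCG
Dpp4, chr2:62412232-62412481, minus strand: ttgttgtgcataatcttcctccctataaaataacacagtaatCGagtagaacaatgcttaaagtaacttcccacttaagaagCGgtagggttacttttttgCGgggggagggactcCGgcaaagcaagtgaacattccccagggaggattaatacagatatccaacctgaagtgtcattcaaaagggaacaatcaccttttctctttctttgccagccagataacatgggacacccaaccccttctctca
These windows hold 2, 2 and 4 CG dinucleotides, against a median of 6 over 32851 RefSeq promoters of the same length. Of the promoters in the table, 18.8% had fewer than the Pi16 and Pdpn windows and 37.8% had fewer than the Dpp4 window. RefSeq promoters were matched for 6 of the 10 genes. Among the other 3 matched genes, Pdgfra had 4 CG dinucleotides, Cd55 had 8 and Gdf10 had 35, and 97% of promoters had fewer than Gdf10. On either strand, a CCAAT box (CCAAT, in 33.8% of promoters) lay in the Pi16 window, starting 64 bases before the start. The letters of a TATA box (TATAAA, 12.4%) lay in the Dpp4 window, starting 227 bases before the start. A TEAD motif (GGAATG, 12.6%) also lay in the Dpp4 window, and an E-box (CANNTG, 66.2%) lay in the windows of Pdpn, Dpp4 and Pdgfra. The motifs in the Dpp4 window did not overlap one another. The AP-1 motif TGANTCA, found in 6.75% of promoters, was in none of the 6 windows, and the GC box GGGCGG (32.7%) was in those of Cd55 and Gdf10. A match is a description of letters and not of binding.

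Between 15979479 and 16940622 reads lay on genes in each BAT library, 17593799 to 18468152 in each siRNA library, and 30176359 (4-OHT) and 29911734 (ETOH). Setdb1 itself had 455 and 473 normalised counts (counts scaled by the authors for library depth) in the control BAT libraries and 156 and 191 in the AKO libraries. It had 784 in siNC against 371 and 399 in siSetdb1, and 1070 reads in ETOH against 620 in 4-OHT, so it was lower in every library labelled as depleted. In siRNA this difference (log2 −1.02) did not pass the test (limma adjusted p = 0.0537). Adipoq, the defining adipocyte gene, was present at 561 to 907 RPKM (reads scaled for the length of the gene and for the reads on genes of the library) in BAT and at 473 to 675 in the cells.

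In BAT, 2 of the 10 genes rose in the Setdb1 AKO libraries and none fell. These were Pi16, 7.34-fold higher, and Pdpn, 4.98-fold higher. Across all genes tested, 1.00% were called higher and 0.677% lower by limma at an adjusted p below 0.05. Both AKO libraries lay above both controls for 5 of the 10 genes (Pi16, Pdpn, Dpp4, Dcn and Lum), against 25.1% of all genes tested, and below them for 0 genes, against 24.9%. An unadjusted p below 0.05 with a higher value was reached by 4 of the 10 (Pi16, Pdpn, Dpp4 and Dcn), against 8.64% of all genes, and with a lower value by 0, against 9.08%. The 10 genes were chosen with earlier results of these data known. The shares over all genes are therefore given as background and not as a test. The median log2 fold change of the 10 was 0.31, beside 0.01 for all 14466 genes tested. With 1 library left out the median was 0.06 without control replicate 2, 0.17 without AKO replicate 2, 0.49 without AKO replicate 1 and 0.51 without control replicate 1, with 6 to 9 of the 10 values positive.

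Pi16 encodes a secreted or membrane-anchored protein of the CAP superfamily and marks fibroblasts of the adventitia and the fascia. The deposited span of the gene is chr17:29318877-29329413 on the plus strand of GRCm38, which differs from the span in GENCODE M21. The promoter window above, set by the RefSeq start, ends at 29318881, a few bases inside the deposited span. Pi16 had 63.3 and 36.5 normalised counts in the control BAT libraries and 229 and 562 in the AKO libraries. The groups were far apart, and the AKO libraries differed from each other by more than the controls did. Its log2 fold change was 2.87 (SE 0.45, 95% interval 1.81 to 3.94, limma adjusted p = 0.0327). The call held without AKO replicate 1 (adjusted p = 0.0192) and was lost without AKO replicate 2 (0.0888), control replicate 1 (0.194) or control replicate 2 (0.279). The fitted value stayed between 2.23 and 3.52 in these fits, and each arm left with 1 library was assumed to vary like the other.

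Pdpn (chr4:143267431-143299564, minus strand) encodes podoplanin, a mucin-type surface protein of fibroblasts and lymphatic endothelium that binds the platelet receptor CLEC-2. Its normalised counts were 10.1 and 17.2 in the control libraries and 60.7 and 80.5 in the AKO libraries. Both AKO libraries were well above both controls, although control counts were close to the minimum of 10 for testing. The log2 fold change was 2.32 (SE 0.42, 95% interval 1.34 to 3.30, limma adjusted p = 0.0488). This call stood just inside the threshold. It was lost when any 1 library was left out (adjusted p between 0.0982 and 0.251), with a pseudocount of 0.5 (0.0510) and with a minimum of 50 counts in 2 libraries (0.0594). With no filter on low values, 22721 genes were tested and neither Pi16 (limma adjusted p = 0.256) nor Pdpn (0.238) passed.

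Dpp4 (chr2:62330073-62412231, minus strand) encodes a surface serine protease, CD26, that defines interstitial progenitors. It had 15.6 and 10.1 normalised counts in the controls and 40.1 and 64.0 in the AKO libraries, so the groups did not overlap. Its log2 fold change of 1.93 (SE 0.45, 95% interval 0.88 to 2.98) did not pass the test (limma adjusted p = 0.0886). With DESeq2 on the recovered reads the adjusted p was 0.0467.

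Cd55 (chr1:130439027-130462744, minus strand) encodes decay-accelerating factor, which limits complement on the cell surface and is used with DPP4 to sort these progenitors. It had 102 and 57.8 normalised counts in the controls and 87.5 and 120 in the AKO libraries, and the groups overlapped. The log2 fold change was 0.41, with an interval from −0.40 to 1.22 (limma adjusted p = 0.585). Ly6a (chr15:74994877-74998031, minus strand) had 1911 and 1889 normalised counts in the controls and 1761 and 2188 in the AKO libraries. Its log2 fold change was 0.05 (95% interval −0.33 to 0.42, limma adjusted p = 0.916), and the control values lay between the AKO values. Both AKO libraries thus lay above both controls for Pi16, Pdpn and Dpp4, as for 25.1% of all genes tested. The groups of Cd55 and Ly6a overlapped.

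Pdgfra (chr5:75152292-75198215, plus strand) and Pdgfrb (chr18:61045150-61085061, plus strand) encode the receptor tyrosine kinases for platelet-derived growth factors. PDGFRα is found on most fat progenitors, and PDGFRβ also on pericytes. Pdgfra had 201 and 156 normalised counts in the controls and 161 and 206 in the AKO libraries, with a log2 fold change of 0.04 (95% interval −0.52 to 0.60, limma adjusted p = 0.957). Pdgfrb had 647 and 544 in the controls and 562 and 497 in the AKO libraries, with a log2 fold change of −0.17 (95% interval −0.57 to 0.24, limma adjusted p = 0.668). Both receptors overlapped between the groups, and the upper limits of both intervals lay below the fitted values of Pi16 and Pdpn.

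Dcn and Lum encode the small leucine-rich proteoglycans decorin and lumican and are neighbours on the plus strand of chromosome 10 (Dcn at chr10:97479609-97518143, Lum at chr10:97565128-97572703), with 46984 bases between them. Dcn had 1490 and 1312 normalised counts in the controls and 2015 and 2182 in the AKO libraries. Both AKO libraries were above both controls, but the log2 fold change of 0.58 (SE 0.15, 95% interval 0.23 to 0.94) did not pass the test (limma adjusted p = 0.111). Lum had 419 and 347 in the controls and 424 and 464 in the AKO libraries, which barely cleared the controls (log2 0.22, SE 0.18, 95% interval −0.20 to 0.64, limma adjusted p = 0.575).

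Gdf10 (chr14:33923587-33937983, plus strand) encodes a secreted ligand of the TGF-beta superfamily, also called BMP3B. It had 56.0 and 36.5 normalised counts in the controls and 25.7 and 57.8 in the AKO libraries. The AKO values lay on both sides of the controls (log2 −0.22, 95% interval −1.32 to 0.87, limma adjusted p = 0.850).

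AKO replicate 2 had more normalised counts than AKO replicate 1 in 9 of the 10 genes, all but Pdgfrb, and in 5 of the 5 whose AKO libraries both exceeded the controls. Over all genes tested this share was 51.4%, and over genes with both AKO libraries above both controls it was 53.7%. In lists described below it was 84.2% for fibroblast matrix genes and 70.0% for interstitial progenitor genes. It was 42.9% for committed preadipocyte genes, 20.0% for adipocyte markers and 14.3% for the tested relatives of Dcn and Lum. The plot of BAT counts by gene shows the order in the members as that of the red symbols.

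**Figure D1:**
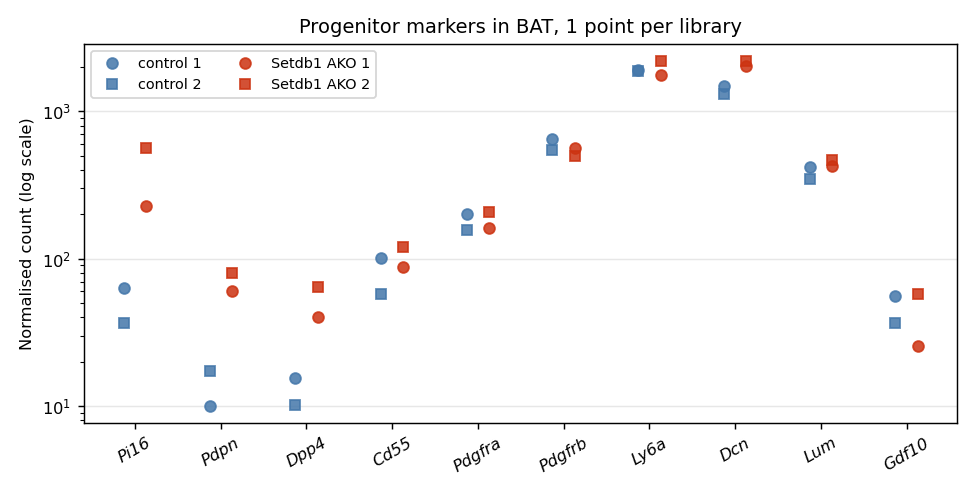
Normalised counts in BAT on a log axis, 1 point per library, for the 10 progenitor markers along the horizontal axis; blue is control, red is Setdb1 AKO, circles are replicate 1 and squares replicate 2. Pi16 (63.3 and 36.5 against 229 and 562), Pdpn and Dpp4 show red symbols clearly above blue ones, and the symbols of Pdgfra, Pdgfrb, Ly6a, Cd55 and Gdf10 overlap.

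Other genes of the same stromal populations were read from lists, which were chosen with earlier results of these data known. Counts and medians are given for them with no list test, and shares over all genes are background only. Of 12 interstitial progenitor genes beside the members, 10 passed the filter on low values, and all 10 had a positive log2 fold change, with a median of 1.02. None passed limma, and 4 were called higher by DESeq2, against 364 of all 14466 genes tested. DESeq2 also called 1 gene higher in each of the fibroblast matrix, complement regulator, mural and lymphatic lists described below. Both AKO libraries exceeded both controls for 8 of the 10 interstitial genes, against 25.1% of all genes. An unadjusted limma p below 0.05 with a higher value was reached by 7, against 8.64%. Sema3c, a secreted semaphorin, had 25.7 and 22.3 normalised counts in the controls and 66.9 and 187 in the AKO libraries (log2 2.18, limma adjusted p = 0.0824). Il33, an alarmin cytokine made by stromal cells, had 15.6 and 17.2 against 37.0 and 169 (log2 2.21, limma adjusted p = 0.153). Clec3b, which encodes tetranectin, had 357 and 257 against 492 and 613 (log2 0.86, limma adjusted p = 0.112). Leaving out AKO replicate 2 lowered the median of the list to 0.66, and all 10 values tested were positive.

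Of 7 committed preadipocyte genes, 3 had positive and 4 negative values, with a median of −0.10 (−0.26 without control replicate 1 and 0.01 without AKO replicate 2). Ebf2, a transcription factor of brown preadipocytes, had a log2 fold change of −0.36, the matrix gene Sparcl1 one of 0.16 and the preadipocyte factor Dlk1 one of −0.34, none of which passed the test. All 6 genes of the regulatory stromal cells described in fat had positive values (median 0.51, and 0.38 to 0.74 with 1 library left out) and none passed limma. F3, the tissue factor gene whose product is the surface antigen CD142, was closest with 1768 and 1712 normalised counts in the controls and 2551 and 2627 in the AKO libraries (log2 0.57, limma adjusted p = 0.0979). The 4 tested complement regulators related to Cd55 in function were all positive, with a median of 0.70 (0.55 to 0.77 with 1 library left out). Cd59a, which blocks the membrane attack complex, had 1021 and 840 against 1522 and 1633 normalised counts (log2 0.77, limma adjusted p = 0.0719).

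Of 19 tested fibroblast matrix genes, 15 had positive values, 0 passed limma and the median was 0.17. Without AKO replicate 2 the median was −0.03 with 9 of 19 positive, without control replicate 2 it was 0.06 with 12 positive, and without AKO replicate 1 it was 0.37 with 18 positive. Fn1, which encodes fibronectin, had 251 and 294 normalised counts in the controls and 487 and 1118 in the AKO libraries (log2 1.44, limma adjusted p = 0.104), and Fbln1, which encodes fibulin-1, had a log2 fold change of 1.76 (limma adjusted p = 0.144). Of 7 tested relatives of Dcn and Lum among the small leucine-rich proteoglycans, 5 were positive, with a median of 0.14 (0.03 without AKO replicate 2 and 0.37 without control replicate 1). Ogn, which encodes osteoglycin, had 116 and 106 against 215 and 198 normalised counts (log2 0.90, limma adjusted p = 0.0918).

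Among the ligands of the PDGF receptors, Pdgfd had a log2 fold change of 0.56 and Pdgfb one of −0.41 in BAT, and 0 of 4 ligands passed the test. The 4 tested relatives of Pi16 in the CAP superfamily had values from −0.33 to −0.04, and the 5 tested relatives of Dpp4 among the prolyl peptidases had a median of −0.03. The 3 tested relatives of Ly6a lay between −0.05 and 0.03. Among 12 tested BMP and TGF-beta ligands related to Gdf10, 1 rose and none fell. That gene was Bmp8b, which encodes a BMP made by brown fat and had 34.9 and 61.9 normalised counts in the controls against 472 and 902 in the AKO libraries (log2 3.78, limma adjusted p = 0.00660). None of the ligands passed without control replicate 1 or without control replicate 2. Gdf5 had a log2 fold change of −1.39 (limma adjusted p = 0.132).

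Markers of other cell types that share members of the list were measured beside these values. Podoplanin is also a lymphatic endothelial protein. The summed level of the 5 lymphatic markers was 4.34 to 4.89 RPKM in the controls and 7.91 to 8.36 in the AKO libraries. Of the 4 that passed the filter, 3 had positive values and 0 passed limma, and the median was 1.62. With 1 library left out the median ran from 0.28 (without AKO replicate 2) to 1.86 (without control replicate 2). In normalised counts, both AKO libraries lay above both controls for 3 of the 4. Flt4, which encodes VEGF receptor 3 and had the most reads of the 5, had 407 and 559 normalised counts in the controls and 349 and 501 in the AKO libraries (log2 −0.19). Ccl21a, a lymphatic chemokine gene, had 2 and 0 reads in the controls and 33 and 12 in the AKO libraries, Lyve1 had 42 and 29 against 40 and 107, and the defining factor Prox1 had at most 4 reads in any BAT library. Reln had 1 and 20 reads in the controls and 34 and 24 in the AKO libraries. Ccl21a reached 10 normalised counts only in the AKO libraries, so it entered through the group where it was high. In AKO replicate 1, Ccl21a alone made up 4.95 RPKM of the sum. The part of lymphatic cells in the Pdpn result was not tested. Mesothelial cells also express podoplanin, and Msln, Upk3b and Upk1b were not listed in the BAT table, where every listed gene has at least 1 read. The summed level of the 6 mesothelial markers was 0.944 to 1.29 in the controls and 1.25 to 1.27 in the AKO libraries. Mural cells express Pdgfrb, and their 10 markers had a summed level of 153 to 160 in the controls and 161 to 198 in the AKO libraries, with 8 of 10 positive and a median of 0.21 (0.07 without AKO replicate 1 and 0.46 without AKO replicate 2). The 10 macrophage markers had a median of 0.06, which was 0.45 with 10 of 10 positive without control replicate 1 and −0.31 with 2 of 10 positive without control replicate 2. The 8 blood endothelial markers had a median of −0.03 (−0.24 without AKO replicate 1 and 0.21 without AKO replicate 2). The 10 adipocyte markers had a median of 0.13 with 0 called.

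**Figure D2:**
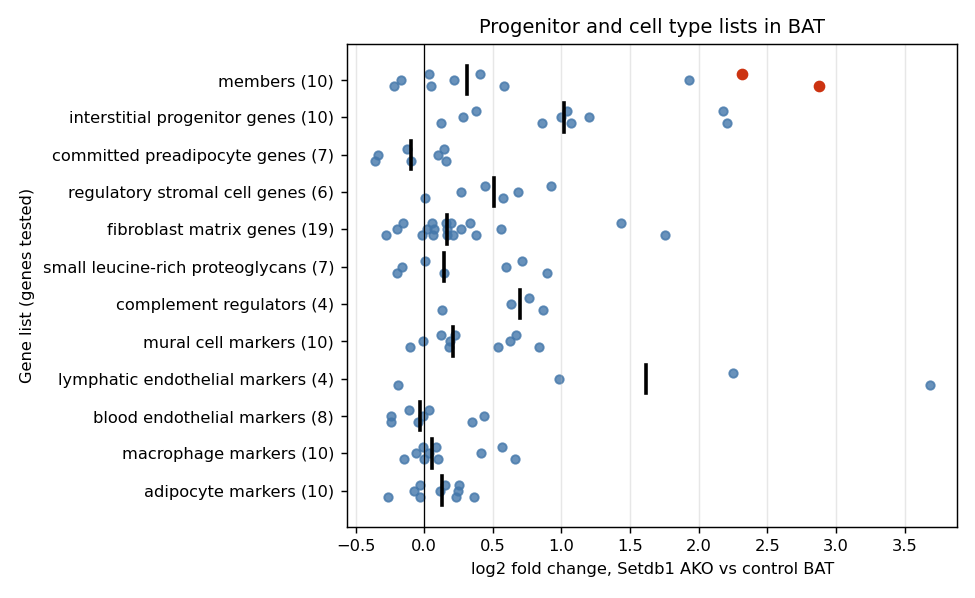
Log2 fold changes, Setdb1 AKO against control BAT, of the 10 members and of 11 related lists; each point is a gene, red points passed limma at an adjusted p below 0.05, black bars are medians, and numbers in brackets count the genes tested. The interstitial progenitor genes all lie above 0 with a median of 1.02, and the committed preadipocyte genes lie around 0. The rightmost lymphatic point, Ccl21a, rests on 2 and 0 control reads.

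In the siRNA experiment, 0 of the 9 listed members passed limma, edgeR or DESeq2. Dpp4 was not listed in either siRNA table. Across all genes 0.0394% were called by limma in either direction, in a design with 1 residual degree of freedom. An unadjusted limma p below 0.05 was reached by 1 member with a higher value, against 3.02% of all genes, and by 3 with a lower value, against 2.04%. Both siSetdb1 libraries were above siNC for Pdpn and Ly6a (34.1% of all genes tested) and below it for Pi16, Dcn, Lum and Gdf10 (33.8%). Pi16 reached the minimum of 10 normalised counts only in siNC, so it entered through the library where it was high. For Cd55, Pdgfra and Pdgfrb the siNC value lay between the siSetdb1 values.

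Pi16 had 16.8 normalised counts in siNC and 7.09 and 6.11 in siSetdb1, from 17, 7 and 6 reads, so its log2 fold change of −1.23 had an interval from −3.03 to 0.58. Pdpn had 37.5 in siNC and 56.7 and 73.3 in siSetdb1 (log2 0.77, SE 0.36, 95% interval −0.03 to 1.57, limma adjusted p = 0.940). Ly6a had 4649 in siNC and 8532 and 5490 in siSetdb1 (log2 0.56, SE 0.19, limma adjusted p = 0.938), and the siSetdb1 libraries differed from each other by more than the lower one differed from siNC. Cd55 had 38.5 in siNC and 31.4 and 57.0 in siSetdb1.

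For both receptors the intervals were narrow and spanned 0. Pdgfra had 715 normalised counts in siNC and 743 and 645 in siSetdb1 (log2 −0.05, 95% interval −0.37 to 0.27), and Pdgfrb had 1751 against 1653 and 1828 (log2 −0.01, 95% interval −0.27 to 0.25). The proteoglycans and the ligand were lower in both siSetdb1 libraries. Dcn had 688 in siNC and 539 and 452 in siSetdb1 (log2 −0.48, SE 0.16, limma adjusted p = 0.929). Lum had 107 against 54.7 and 44.8 (log2 −1.09, SE 0.33, limma adjusted p = 0.818), and Gdf10 had 112 against 44.6 and 45.8 (log2 −1.30, SE 0.33, limma adjusted p = 0.571). The 95% intervals of these 3 genes stayed below 0, but none passed after adjustment over 15224 genes. The summed level of 10 macrophage markers was 34.4 RPKM in siNC and 16.4 and 18.5 in siSetdb1, with 8 of 9 tested markers negative. The part of macrophages in the lower members was not tested. The 10 adipocyte markers had a median of −0.06.

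In the 4-OHT experiment, with 1 library in each group and no test, 7 members reached 50 reads in a library. Dcn and Gdf10 were more than 1.5-fold lower after 4-OHT, and none was more than 1.5-fold higher. Gdf10 reached 50 reads only in ETOH (106 reads, against 47 in 4-OHT), so it entered through the library where it was high. Over all 13969 genes past this minimum, 6.12% were past 1.5-fold lower and 4.21% past 1.5-fold higher. Of the 7 members, 6 had a log2 ratio below 0, against 48.3% of all genes, and their median was −0.50, beside 0.01 for all genes. The intervals given for these ratios cover counting error only.

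Dcn had 2299 reads in ETOH and 979 in 4-OHT, a ratio of 0.442 (95% interval 0.410 to 0.476). Gdf10 had 106 and 47 reads, a ratio of 0.460 (0.319 to 0.654). The receptors were lower by less. Pdgfra had 5013 reads in ETOH and 3425 in 4-OHT, a ratio of 0.709 (0.679 to 0.740), and Pdgfrb had 9004 and 6571, a ratio of 0.757 (0.733 to 0.782). Of the surface markers, Cd55 had 1180 reads in ETOH and 792 in 4-OHT, a ratio of 0.696 (0.636 to 0.763), and Pdpn had 1091 and 916, a ratio of 0.871 (0.797 to 0.952). Ly6a was the only one of the 7 with more reads after 4-OHT, with 1589 in ETOH and 1963 in 4-OHT, a ratio of 1.28 (1.20 to 1.37). The other three were thinly covered. Lum had 35 and 21 reads, a ratio of 0.623 with an interval from 0.344 to 1.10, Pi16 had 17 and 5, a ratio of 0.305 (0.0880 to 0.862), and Dpp4 had 3 and 3.

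Most matrix and progenitor genes outside the members had log2 ratios below 0 in this experiment, and the adipocyte markers had log2 ratios above 0. Over all genes past the minimum, 48.3% had a log2 ratio below 0. Of 20 fibroblast matrix genes, 18 had a log2 ratio below 0 and 3 were past 1.5-fold lower, with a median of −0.14, and Fn1 had a log2 ratio of −0.63. Of 9 interstitial progenitor genes past the minimum, 7 were below 0, with a median of −0.18. All 10 adipocyte markers were above 0, with a median of 0.43 and a summed level of 2778 RPKM in ETOH and 3488 in 4-OHT. The summed level of 10 macrophage markers was 2439 in ETOH and 1350 in 4-OHT. The part of these shifts in the lower members was not tested.

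**Figure D3:**
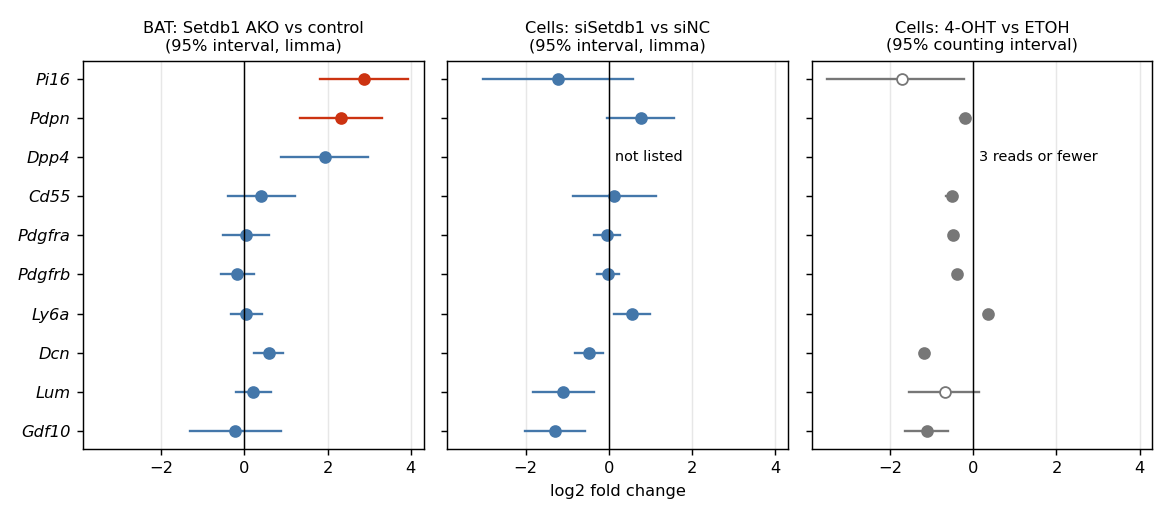
Log2 fold change of each of the 10 members in the 3 experiments, with 95% intervals from limma (BAT and siRNA) or from read counting only (4-OHT); red marks an adjusted p below 0.05, open circles mark genes under 50 reads, and grey points have no test. Pi16 is at 2.87 in BAT and at −1.23 in siRNA, and Dcn is at 0.58 in BAT, −0.48 in siRNA and −1.18 in 4-OHT.

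Set side by side, Pi16 and Dcn had both treated libraries above the controls in BAT and every treated library below its control in the cells, and Pdpn was higher in BAT and in siSetdb1 and lower after 4-OHT. Lum had the same order of libraries as Pi16 and Dcn, at a small difference in BAT and with 35 reads in ETOH and 21 in 4-OHT. In the cells Pi16 rested on 17 reads or fewer in each library. The experiments differ in material, in the way Setdb1 was lost and in normalisation, so no test was made across them.

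Levels between genes were compared per length, in RPKM. In control BAT, Ly6a was highest at 99.4 ± 3.78 (SD, n = 2), followed by Dcn at 15.1 ± 1.81, Lum at 9.88 ± 1.61 and Pdgfrb at 6.86 ± 1.04, and the libraries of these 4 genes did not overlap. Pdgfra (1.13 ± 0.232), Cd55 (1.04 ± 0.435), Pi16 (0.793 ± 0.323), Gdf10 (0.562 ± 0.183) and Pdpn (0.471 ± 0.161) formed a lower range in which each overlapped the next, and Dpp4 was lowest at 0.129 ± 0.0423. In the AKO libraries, Pi16 stood at 5.94 ± 3.63, within reach of Pdgfrb at 5.75 ± 0.377, and Pdpn at 2.32 ± 0.505 was above Pdgfra at 1.09 ± 0.215 and Cd55 at 1.27 ± 0.305. Ly6a (97.6 ± 16.9), Dcn (21.4 ± 1.65) and Lum (10.8 ± 0.916) kept the first 3 places.

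The control cells differed from tissue and from each other in order. In the ETOH library Pdgfrb led at 55.0, followed by Ly6a at 44.1, Pdpn at 20.1, Pdgfra at 16.7, Dcn at 13.2 and Cd55 at 8.13, with Gdf10, Lum, Pi16 and Dpp4 below 1. In the siNC library Ly6a led at 212, followed by Pdgfrb at 17.5, Dcn at 6.46, Pdgfra at 3.92 and Lum at 2.39, and Pdpn was at 1.13. Pi16 was at 0.143 in ETOH and 0.231 in siNC, and rested on 17 reads in each of these control libraries.

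**Figure D4:**
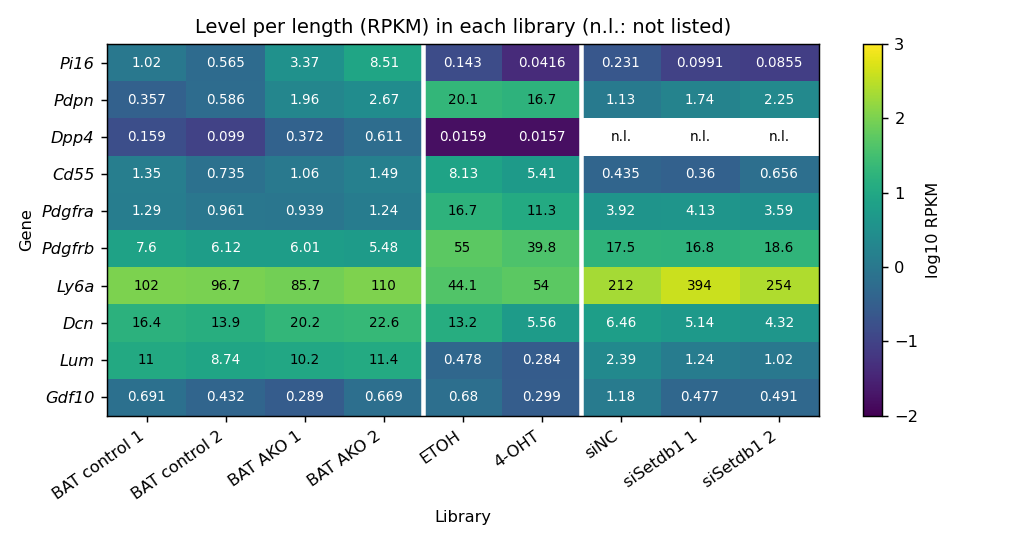
Level of each of the 10 members (rows) in each of the 9 libraries (columns), in RPKM, printed in each cell and coloured on a log10 scale; n.l. means not listed. Pi16 and Pdpn brighten from the control to the AKO libraries, Ly6a is the brightest gene in BAT and siRNA, and Pi16 and, where listed, Dpp4 are the darkest rows in the cultures.

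Some members share sequence or position with other genes. In the GENCODE M21 transcripts, 31.9% of the 31-base words of Ly6a occurred in another gene, most often Ly6c1 (21.9%), and 11.4% of those of Cd55 did, most often in Cd55b (11.2%), so their counts are less certain. The share was 4.08% for Pi16 and at most 1.21% for the others. Antisense genes overlap Pi16, Dpp4, Cd55 and Pdgfra, and the strand setting of the counting was not given in the sources used here, so reads from the opposite strand cannot be told apart. The protein-coding genes next to Pi16 are BC004004 and Mtch1, a mitochondrial carrier gene 1478 bases away. In BAT their log2 fold changes were 0.00 and 0.31 (limma adjusted p = 0.992 and 0.396). Prdm2, on one side of Pdpn, had a log2 fold change of −0.59 (limma adjusted p = 0.121), and none of the neighbours tested in BAT passed.

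Genes whose pattern lay nearest to a member were taken by distance over 5 log2 ratios to the own control (AKO 1, AKO 2, 4-OHT, siSetdb1 1 and siSetdb1 2) among 11514 eligible protein-coding genes. Nearest to Pdpn were Rassf4 (distance 0.605), Adgrg2 (0.734) and Efemp1 (0.744), which had ratios of 1.88 and 2.58, 2.03 and 2.39, and 2.33 and 2.15 in the AKO libraries, where Pdpn had 2.12 and 2.52. Nearest to Gdf10 was Lyz2 (0.737), a macrophage marker, with −1.11 and −1.66 in siSetdb1 and −0.84 in 4-OHT. The receptors had nearer matches, with Prkcd at 0.106 from Pdgfra and Acvrl1 at 0.116 from Pdgfrb, whose own ratios were small. Nearest to Ly6a was Ttll1 (0.361) and nearest to Cd55 was Slc11a1 (0.337). Pi16 and Lum did not enter because they stayed under 50 reads in both libraries of the 4-OHT experiment. Dpp4 also stayed under 50 reads there and was not listed in siRNA. These distances share the libraries and carry no test.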

How the data were processed

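The authors deposited, for BAT and siRNA, tables with a signal for each gene in each library, meaning read counts multiplied by a depth factor, and for 4-OHT a table of the raw count, a scaled signal and FPKM values, per the file headers. The same deposited tables hold the authors' log2 fold changes, p-values and adjusted p-values, which were not used here, nor were the FPKM values. Tools in the submitters' processing notes were, in no stated order or role, DESeq2 1.36.0, featureCounts 2.0.3, Trimmomatic 0.39 and STAR 2.7.10a, with the build GRCm38. How reads mapping to several places were counted was not given in the sources used here.

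Whole reads were recovered from the signal (100% of values within 0.05 reads of a whole number). The siRNA tables were joined through the siNC library, which had identical reads in 19381 of 19381 shared genes. BAT and siRNA were tested with limma 3.58.1 (R 4.3.3; lmFit, eBayes with a trend) on log2(normalised count + 1), which understates changes of low genes, with Benjamini-Hochberg adjustment over all genes and a call at 0.05. Genes needed 10 normalised counts in 2 BAT libraries or in 1 siRNA library. The 4-OHT values are log2 ratios of TMM-scaled CPM with a prior count of 2, for genes with 50 counts in 1 library, beside exact 95% (Clopper-Pearson) intervals of the read ratio. Alternatives were edgeR 4.0.16 and DESeq2 1.42.0 on recovered reads, other scalings, pseudocounts and filters, a replicate block, and leaving out each library. The labels do not say whether libraries of a group came from separate animals or cultures, so the p-values cover the spread among these libraries, which may be technical. The fitting code was tested on simulated data.

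The members and the gene lists were chosen with earlier results of these data known. Genes outside the members were named by rule: Setdb1, at most the 3 genes of a list with the smallest unadjusted p in BAT, genes among the 3 nearest in pattern, the protein-coding neighbours, and defining markers of other cell types, the last chosen after their values were seen. Lists were described by counts and medians only. Promoters are RefSeq windows of GRCm38.p6. RPKM levels were computed here from the reads and the deposited gene lengths. Some genes that the rule names are not reported here.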

Additional observations from a re-analysis of the deposited data

Results flagged for a closer look

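Some members lay on opposite sides of their controls in different experiments, with every treated library of one experiment above and every treated library of the other below its controls. These differences were not tested, since the experiments were normalised separately. The log2 fold change of Pi16 was 4.10 higher in BAT than in siRNA, and the siRNA side rests on 17 reads or fewer in each library. Pi16 passed the siRNA filter only through siNC, where it was high. For Dcn it was 1.06 higher in BAT than in siRNA and 1.76 higher in BAT than in 4-OHT. For Lum it was 1.31 higher in BAT than in siRNA. For Pdpn it was 2.52 higher in BAT than in 4-OHT and 0.97 higher in siRNA than in 4-OHT. The 4-OHT side of each difference is 1 library against 1.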

How the results depend on the processing

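The number of members called in BAT (2) remained 2 with edgeR, TMM scaling, a pseudocount of 5 and the replicate block, and was 3 with DESeq2. It was 1 with a pseudocount of 0.5, 0 with no filter on low values and 1 with a filter of 50 counts in 2 libraries, and the cause was not tested. With 1 library left out it ranged from 0 to 1. Fitted fold changes reversed in sign for Pdgfra (−0.14 to 0.22), Ly6a (−0.11 to 0.20) and Gdf10 (−0.79 to 0.35) when 1 library was left out, none of them called. AKO replicate 2 turned Pdgfra and Ly6a, control replicate 2 also turned Pdgfra, and AKO replicate 1 or control replicate 1 turned Gdf10. The direction of the other 7 members held in every BAT alternative. In siRNA 0 members were called in all 7 alternatives. In 4-OHT the count of members past 1.5-fold was 3 with plain CPM and 4 with a filter of 10 counts in 1 library, which admits Pi16 and Lum. Pi16 reached 10 counts there only in ETOH (17 reads, against 5 in 4-OHT). Over all genes, the calls in BAT (243) were 651 with DESeq2, 11 with no filter, and 157, 92, 24 and 22 without AKO replicate 1, AKO replicate 2, control replicate 1 and control replicate 2. The calls in siRNA (6) were 37 with edgeR, 11 with DESeq2, 19 with TMM scaling, 29 with a filter of 50, 3 with either other pseudocount and 0 with no filter. Whether BAT libraries with the same replicate number were paired is not given in the labels. The deviations of same-numbered libraries had r = −0.0151 over 14466 genes, which cannot decide this with 2 libraries in each group. The replicate block called 2 members and 299 genes. No paired analysis was possible for siRNA and 4-OHT because each has a lone control library. Leaving out a siSetdb1 library leaves values with no test. Few reads limit Pi16 in both cell experiments and Dpp4 and Lum in 4-OHT.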

Other observations

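Schwann cell and lymphocyte genes were not described above. Of 4 Schwann cell genes tested in BAT, 3 had positive values and 1 a negative one, with a median of 0.40. The median ran from −0.68 without AKO replicate 1 to 0.76 without control replicate 2, and 0 genes were called. Mbp, which encodes myelin basic protein, had 715 and 979 normalised counts in control BAT and 1337 and 1294 in the AKO libraries (log2 0.65, limma adjusted p = 0.138). Of 3 tested lymphocyte markers, 1 had a positive and 2 had a negative value, with a median of −0.23, and 0 were called. The median was −0.84 without AKO replicate 1 and 0.38 without AKO replicate 2. Cd2, the positive one, had 28.4 and 21.3 normalised counts in the controls and 40.1 and 42.3 in the AKO libraries. Among podoplanin partners, Cd44, a hyaluronan receptor, had 330 and 394 normalised counts in the controls and 397 and 476 in the AKO libraries (log2 0.27, limma adjusted p = 0.506), and 4 of 5 tested partners had positive values. Ly6c1 is the protein-coding neighbour of Ly6a on one side, with Ly6i on the other, and is the gene sharing most sequence with Ly6a. In the cells, Ly6c1 had a log2 fold change of 0.66 in siRNA (limma adjusted p = 0.444) and a log2 ratio of 0.66 in 4-OHT, beside 0.01 in BAT.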
